A study of Mus musculus with 12 samples.

Results

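The cytosolic ribosomal protein genes encode the protein parts of the ribosome that works in the cytoplasm. They were taken by gene name: *Rpl* or *Rps* followed by a number and at most 1 of the letters a, l or x, plus *Rplp0*, *Rplp1*, *Rplp2* and *Rpsa*, with rows named as pseudogenes (-ps) left out. This rule found 82 of the 52636 genes, the same 82 in the table of each cell type. Neutrophils and monocytes were isolated from the bone marrow of C57BL/6 J mice aged 8 to 12 weeks with negative-selection kits, and RNA was sequenced after 4 h with 1 nM CGRP, a neuropeptide of pain-sensing neurons that raises cAMP through the receptor RAMP1–CALCRL, or with saline (PBS). Neutrophils were treated directly after isolation, in RPMI with 10% serum. Monocytes spent 3 days in DMEM/F12 with M-CSF (10 ng/ml) before treatment and are called macrophages here, monocyte/macrophage in the sample labels. There were 3 libraries per group and 12 in total, no gene was altered in any group, and the sources used here say neither how many mice were used nor whether equal library numbers stand for shared mice, so the spread between libraries may be partly technical. Reverse transcription started from the poly-A tail and added a unique molecular identifier, so a count stands for a molecule near the 3′ end of a transcript.

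Libraries held 2002559 to 3631989 counts. The detection floor was set at 3 counts, or 0.826 to 1.5 CPM (counts scaled to a common library total), which covers counting error only. Levels below are TMM-scaled CPM, on 1 scale for all 12 libraries. The labels were checked on marker genes. The 12 neutrophil markers, of which *S100a8* was the most abundant, summed to 192051, 241397 and 167519 CPM in the saline neutrophil libraries and to 338, 399 and 307 CPM in the saline macrophage libraries. The 14 monocyte and macrophage markers, led by *Apoe*, summed to 2878, 2867 and 2842 CPM in neutrophils and to 46362, 50423 and 45191 CPM in macrophages. *Apoe* alone gave 23549, 27410 and 23201 CPM of the latter. In the saline comparison described below, 12 of these 14 were called higher in macrophages and 1 lower, and all 12 neutrophil markers lower. Of all genes, 33% were called higher and 35.5% lower. *Thbs1*, which encodes thrombospondin-1, served as a check of the treatment labels. It stood at 113, 104 and 118 CPM with saline and at 679, 623 and 455 CPM with CGRP in neutrophils, and in macrophages at 42.5, 38.4 and 70.8 CPM with saline and at 1340, 1763 and 1626 CPM with CGRP.

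As background, a ribosome has a small and a large subunit, and each ribosomal protein is needed in about equal number, so cells set the output of these genes together. Proteins of the small subunit (*Rps* genes) line the path of the mRNA and help decode it, whereas those of the large subunit (*Rpl* genes) surround the site where the peptide bond is made and the tunnel through which the new chain leaves. Their mRNAs typically begin with a C followed by a run of pyrimidines, the 5′ terminal oligopyrimidine (TOP) sequence, through which the kinase mTORC1 and the RNA-binding protein LARP1 set how strongly they are translated. Mature neutrophils are known to make little new protein, and macrophages kept in M-CSF grow and divide. RNA levels, as measured here, do not show translation.

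RefSeq promoters of GRCm38.p6 were found for 60 of the 82 members, and the first bases were read from them, since a TOP start is the sequence that these genes are best known to share. A C at the annotated first base followed by 4 bases that are each C or T, on the strand of the gene, stood at the start of at least 1 promoter of 13 of the 60 members (21.7%) and of 813 of 27025 genes in all (3.01%). Counted by promoter, 18.1% of the members' promoters and 2.51% of all promoters held it. The match is a description of the annotated base only, which can lie some bases from the true start, so that a member without a match may still begin with a C and a pyrimidine run. The 4 windows that follow each hold 15 bases before and 15 bases from the annotated start, with the matching C and its 4 pyrimidines in capitals. *Rpl35* and *Rpl38* are shown because they were among the 5 members with the largest rise in macrophages, and *Rps6* and *Rps27* because they carry the same start and did not pass the test there.
Rpl35, chr2:39005117-39005146, minus strand: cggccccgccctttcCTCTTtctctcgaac
Rpl38, chr11:114668565-114668594, plus strand: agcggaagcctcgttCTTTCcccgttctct
Rps6, chr4:86857353-86857382, minus strand: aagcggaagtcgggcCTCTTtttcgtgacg
Rps27, chr3:90213634-90213663, minus strand: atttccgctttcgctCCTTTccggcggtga

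Of the 82 members, 79 had counts in every library. On average over the 12 libraries, 76 members stood at 20 CPM or more, with means between 86.2 and 2785 CPM, and 6 stood below it. Filtering on low counts left 78 members to test in neutrophils, in the difference of the CGRP effect and between the cell types, and 77 in macrophages, where *Rpl3l* was lost. The 4 members never tested were *Rpl10l*, with 1 count in all 12 libraries, *Rpl39l*, with 1 to 9 counts per library, *Rpl6l*, with 0 to 4, and *Rpl24*, with 1 to 11. *Rpl24* encodes an ordinary protein of the large subunit, and 60.2% of the 31-base sequences in the last 500 bases of its transcripts also occur in other annotated genes. This shared part, through which reads can be lost or split between a gene and its copies, ranged from 0% to 94% over the 82 members. Its median was 31.3%, and members with a large share are uncertain in level. Its part in the low counts of *Rpl24* was not tested. Of the 2 members with the largest shares, *Rpl36* (94%) stood at a mean of 585 CPM in saline neutrophils and *Rpl6l* (85.3%) at 0.641 CPM.

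Together the members took 5.54, 5.64 and 5.41% of the counts in the 3 saline neutrophil libraries and 6.06, 5.65 and 5.52% in those with CGRP. In macrophages they took 7.83, 8.92 and 7.07% with saline and 8.98, 8.20 and 7.54% with CGRP. Every macrophage library therefore lay above every neutrophil library, while the CGRP and saline libraries of each cell type overlapped. The group means were 5.53 ± 0.119% and 5.74 ± 0.28% in neutrophils with saline and CGRP, and 7.94 ± 0.926% and 8.24 ± 0.724% in macrophages (SD, n = 3 each). Large-subunit genes made up 2.96 ± 0.0845% and small-subunit genes 2.57 ± 0.0391% of the counts in saline neutrophils, against 4.26 ± 0.495% and 3.68 ± 0.436% in saline macrophages. The mitochondrial genome gave 1.42 ± 0.0803 and 1.40 ± 0.137% of the counts in neutrophils with saline and CGRP, with overlapping groups. In macrophages it gave 1.48, 1.44 and 1.57% with saline and 1.23, 1.38 and 1.34% with CGRP, every CGRP library below every saline library. A share depends on the other genes in the library. The 10 most abundant genes alone took 20.1 to 25.7% of a neutrophil library and 14.4 to 17.3% of a macrophage library.

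**Figure D1:**
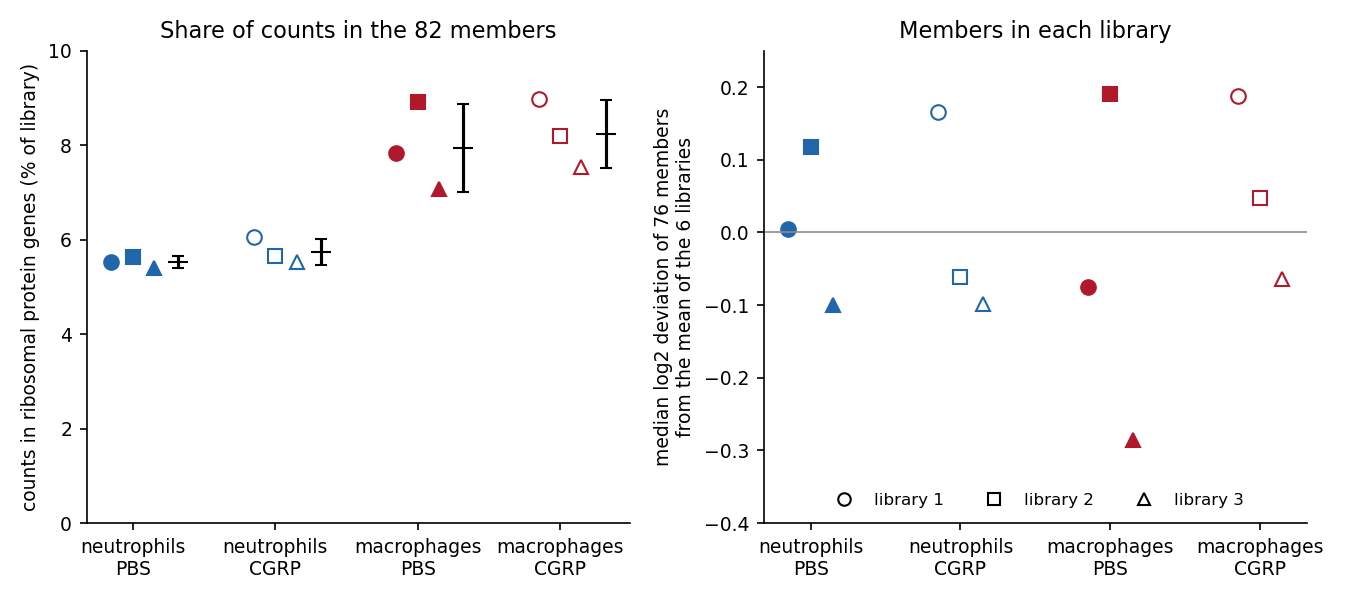
The left panel plots the share of each library's counts in the 82 ribosomal protein genes (% of the library total), with the mean and SD of each group in black, and the right panel the median log2 deviation of 76 members from the mean of the 6 libraries of their cell type. Blue marks neutrophils, red macrophages, filled symbols PBS, open symbols CGRP, and the symbol shape the library number. The 6 macrophage libraries sit between 7.07 and 8.98%, all above the 6 neutrophil libraries, and the members of saline macrophage library 3 lie lowest, at -0.285.

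The members varied together from library to library within a group. Of the 76 members at 20 CPM or more, 74 were highest in library 2 of the saline macrophages and 72 were lowest in library 3 of that group. In saline neutrophils, 64 of 76 were highest in library 2 and 60 were lowest in library 3. With CGRP, 73 of 76 were highest in library 1 of the neutrophils and 58 in library 1 of the macrophages. The median deviation of the members from the mean of their cell type ran from -0.10 to 0.17 on the log2 scale in neutrophils and from -0.28 to 0.19 in macrophages. A shift of the whole set by this much between single libraries is the error against which a shared change with CGRP has to be read. The libraries also differed in other genes. Among saline macrophages, library 3 had 421 CPM in 14 proliferation markers, against 578 and 568 CPM in libraries 1 and 2, and among saline neutrophils library 2 had the highest sum of neutrophil markers. Whether these moved the members was not tested.

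The comparison of CGRP with saline asked whether the peptide changed ribosomal protein genes in neutrophils. None of the 78 members tested passed the threshold of 0.05 on the adjusted p in limma-voom (0 higher and 0 lower), where 2.53% of the 9819 genes tested did, 1.51% higher and 1.02% lower, and none had an unadjusted p under 0.05, where 12.8% of all genes did. edgeR's quasi-likelihood test and DESeq2 called 0 members as well. The median log2 fold change of the members was 0.0009, beside 0.0008 for all genes tested, with 40 members above 0 and 38 below, where 50.2% of all genes were above 0. It was lowest, at -0.072, without CGRP library 1 and highest, at 0.061, without CGRP library 3. The smallest adjusted p among them was 0.512.

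The 3 highest log2 fold changes in neutrophils, none past the threshold, were those of *Rpl15*, *Rpl13a* and *Rps21*. *Rpl15*, a protein of the large subunit, stood at 109, 110 and 112 CPM with saline and at 132, 122 and 112 CPM with CGRP (log2 fold change 0.17, SE 0.10). Its groups did not overlap, but the gap was too small to show in the rounded values, 112 CPM on both sides. In the upward direction the groups did not overlap for 2 of the 78 members, *Rpl15* and *Rps2*, and for 8.1% of all genes. *Rpl13a*, which in human monocytes is known to be released from the ribosome after interferon-γ, had a log2 fold change of 0.15 (SE 0.13), and *Rps21*, a protein of the small subunit, one of 0.14 (SE 0.09). Both had overlapping groups. The 3 lowest values were those of *Rpl3l*, *Rps12* and *Rpl41*, at -0.17 (SE 0.32), -0.11 (SE 0.10) and -0.11 (SE 0.10). No member had all 3 CGRP libraries below all 3 saline libraries, where 9.69% of all genes did. All 78 intervals (95%) of the log2 fold change held 0, and 77 of them lay within 1.5-fold in either direction. Over the members at 20 CPM or more their bounds reached from -0.46 to 0.41. The SE had a median of 0.089 over the members, and the smallest log2 fold change called among all genes was 0.30 in size.

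In macrophages the same comparison also gave no member past the threshold (0 of 77 higher and 0 lower), where 7.43% of the 9393 genes tested passed it, 3.46% higher and 3.97% lower, and edgeR and DESeq2 gave 0 as well. At an unadjusted p under 0.05 there were 2 members, *Rps4x* and *Rpl28*, where 19.8% of all genes were under that value. The fold changes were nonetheless nearly all on 1 side. Of the 77 members, 72 had a log2 fold change above 0 and 5 below, where 50.7% of all genes were above 0. Their median was 0.115 (1.08-fold), beside 0.005 for all genes. The members share their libraries and move together, so that this count does not stand for 77 separate observations. The median was 0.239 without saline library 2, -0.001 without saline library 3, 0.043 without CGRP library 1 and 0.181 without CGRP library 3, so its size depended on single libraries. Scaled by library totals in place of TMM it was 0.062, and that of all genes -0.045. The mitochondrial share, lower in all 3 CGRP libraries, moved with the treatment too, and its part was not tested.

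*Rps4x*, the X-linked gene of a small-subunit protein, stood at 421, 457 and 415 CPM with saline and at 477, 534 and 557 CPM with CGRP in macrophages. All 3 CGRP libraries were above the 3 saline libraries, with a difference of 0.28 on the log2 scale (SE 0.12, adjusted p = 0.218 in limma-voom). *Rpl28*, a protein of the large subunit, stood at 336, 360 and 342 CPM with saline and at 408, 446 and 391 CPM with CGRP (log2 fold change 0.26, SE 0.12, adjusted p = 0.243). *Rpsa*, which was first described as a laminin receptor and belongs to the small subunit, stood at 548, 660 and 509 CPM with saline and at 695, 717 and 628 CPM with CGRP (log2 fold change 0.26, SE 0.13, adjusted p = 0.295). Here the groups overlapped. In the upward direction 6 of 77 members did not overlap (*Rpl10*, *Rpl28*, *Rpl29*, *Rps2* and *Rps4x* among them), a share of 7.79% where 11.6% of all genes did so, and in the downward direction none did, where 12.5% of all genes did. The lowest values were those of *Rps4l* (log2 fold change -0.20, SE 0.33), *Rps27l* (-0.11, SE 0.16) and *Rps12* (-0.01, SE 0.17), none past the threshold. Of the 77 intervals (95%), 74 lay within 1.5-fold, and over the members at 20 CPM or more the bounds reached from -0.46 to 0.62.

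**Figure D2:**
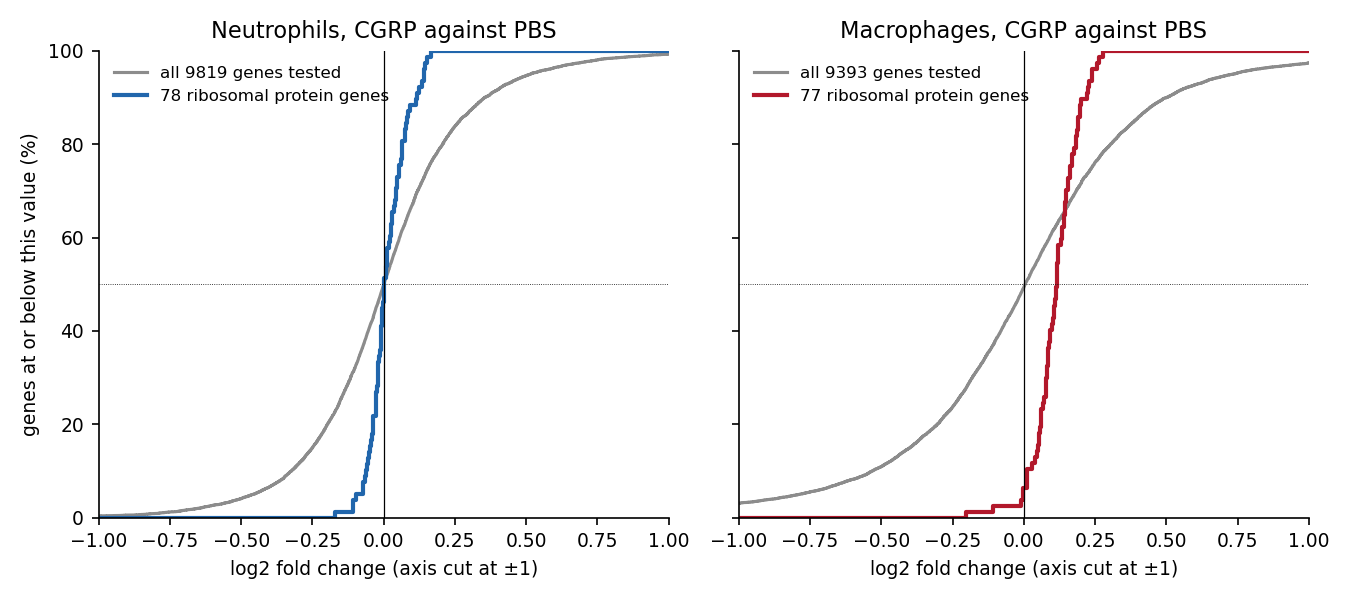
Cumulative share of genes (vertical axis, %) at or below each log2 fold change of CGRP against PBS (horizontal axis, drawn from -1 to 1) in neutrophils (left) and macrophages (right), for all genes tested in grey and for the ribosomal protein genes in colour. The members span a narrower range than all genes in both cell types, and their curve crosses 50% at 0.0009 in neutrophils and at 0.115 in macrophages.

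*Rplp0*, *Rplp1* and *Rplp2* encode the stalk that draws elongation factors to the ribosome, and none passed in either cell type. *Rplp0* stood at 1418, 1606 and 1339 CPM in saline macrophages and at 1745, 1784 and 1604 CPM with CGRP (0.24 on the log2 scale, SE 0.12, adjusted p = 0.294), and the highest saline library lay just above the lowest CGRP library. *Rplp1* and *Rplp2* had log2 fold changes of 0.07 (SE 0.12) and 0.14 (SE 0.12). In neutrophils the 3 genes had values of 0.01, -0.04 and -0.04. *Rps6*, the small-subunit protein that S6 kinases phosphorylate when mTORC1 is active, had values of -0.01 (SE 0.10) in neutrophils and 0.22 (SE 0.17, adjusted p = 0.513) in macrophages. *Rps27a*, made as a fusion with ubiquitin, had -0.06 (SE 0.08) and 0.06 (SE 0.16), and *Rpl41*, with 75 coding bases the shortest of the members, had -0.11 (SE 0.10) and 0.05 (SE 0.20).

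Whether CGRP acted differently in the 2 cell types was tested with an interaction term. None of the 78 members passed (0 higher and 0 lower), where 2.36% of the 10694 genes tested did, 1.21% higher and 1.15% lower, and 1, *Rpl3l*, had an unadjusted p under 0.05, where 13.2% of all genes did. In all alternatives run, edgeR and DESeq2 included, 0 or 1 members were called. The median of the differences, macrophages minus neutrophils, was 0.119, beside 0.020 for all genes, and 72 of 78 were above 0, where 52.1% of all genes were. Scaling by library totals put it at -0.002 and all genes at -0.098. Among macrophages it was -0.009 without saline library 3, 0.249 without saline library 2, 0.031 without CGRP library 1 and 0.185 without CGRP library 3. Among neutrophils it was 0.064 without saline library 2 and 0.207, 0.068 and 0.039 without CGRP libraries 1, 2 and 3.

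*Rpl3l*, a paralog of *Rpl3* known from heart and skeletal muscle, had few counts in all groups. It had 26, 25 and 26 counts in the saline neutrophil libraries and 35, 15 and 19 counts with CGRP. In macrophages it had 0, 1 and 1 counts with saline and 5, 7 and 3 counts with CGRP. All 3 CGRP macrophage libraries were thus above the saline ones. Summed over libraries, 15 counts against 2 gave a ratio of rates of 8.86, with a 95% interval from 2.06 to 79.8 (exact, from the counts, covering counting error only). The interaction had an adjusted p of 0.0603 in limma-voom, which over all alternatives ranged from 0.00825 to 0.32. It passed with library weights, with the replicate block, with the coding-length trend removed and without CGRP neutrophil library 1. The gene entered this test only through the neutrophil libraries, where it is high, since its macrophage counts alone were too low to be tested.

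Between the cell types in saline, most ribosomal protein genes were higher in macrophages. Of the 78 members tested, 51 were higher at an adjusted p under 0.05 in limma-voom, where 33% of the 10186 genes tested were, and 2 were lower, where 35.5% of all genes were. At an unadjusted p under 0.05 there were 56, where 70.9% of all genes were. The median log2 fold change of the members, macrophages over neutrophils, was 0.409 (1.33-fold), beside -0.030 for all genes, and 69 were above 0, where 49% of all genes were. Large-subunit genes were higher in 29 of 46 cases and lower in 1, with a median of 0.430, and small-subunit genes in 22 of 32 cases and lower in 1, with a median of 0.399. All 3 macrophage libraries were above all 3 neutrophil libraries for 45 members, where this held for 34.4% of all genes, and below them for 2, where it held for 36.7%. Cell type, culture, medium and deposited table changed together here and cannot be told apart, and in bulk samples fewer cells of a type and less RNA per cell cannot be told apart either. Left out in turn, single libraries gave between 37 and 64 members higher, the fewest without neutrophil library 3 and the most without macrophage library 3, and the median was 0.272 without macrophage library 2.

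**Figure D3:**
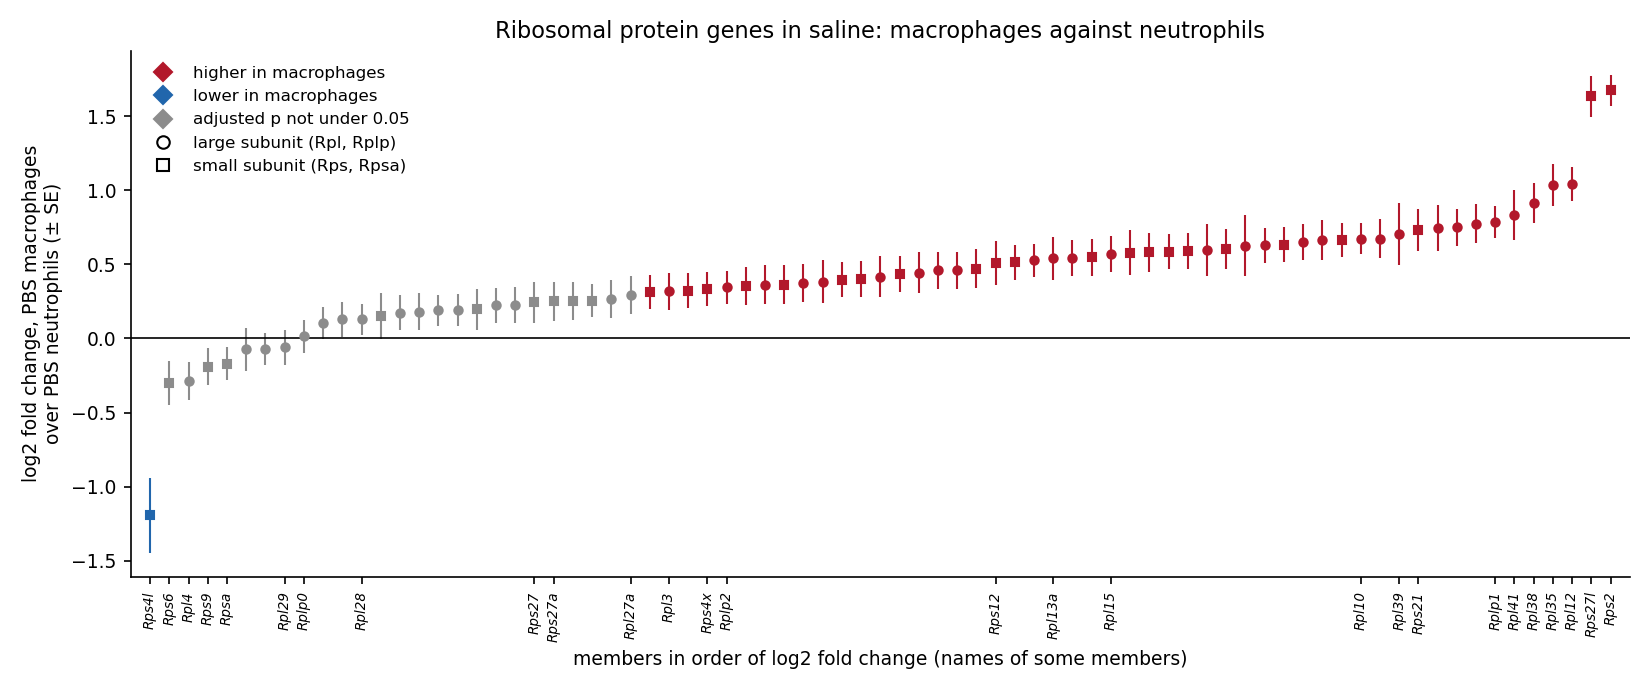
Each point is the log2 fold change of 1 ribosomal protein gene in saline, macrophages over neutrophils, with its SE as a bar, for 77 of the 78 members tested (*Rpl3l*, near 0 counts in macrophages, is not drawn). Names are printed for some members. Circles mark large-subunit and squares small-subunit genes, with red for higher, blue for lower and grey for members not past the threshold. *Rps2* and *Rps27l* stand apart at 1.67 and 1.63, and the other red members lie at 1.04 or below.

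The called members differed in size. *Rps2*, a small-subunit protein at the site where the mRNA enters the ribosome, showed the largest rise. It stood at 193, 199 and 202 CPM in saline neutrophils and at 654, 645 and 595 CPM in saline macrophages, 3.19-fold higher (log2 fold change 1.67, SE 0.11, adjusted p = 9.51e-11). The libraries of a group lay close together and far from the other group. The gene lies at chr17:24718116-24721929 on the plus strand of GRCm38, 65.1% of the 31-base sequences of its last 500 bases are shared with other annotated genes, and *Snhg9*, on the opposite strand, had 254 counts in all libraries. The strand setting of the counting is not given in the sources used here, so reads of overlapping genes on opposite strands might not be separated.

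*Rps27l*, a paralog of *Rps27* known as a target gene of p53, came next. It stood at 194, 189 and 174 CPM in neutrophils and at 561, 726 and 466 CPM in macrophages (3.10-fold, log2 fold change 1.63, SE 0.14, adjusted p = 6.21e-09), and the groups did not overlap. Its partner *Rps27* stood at 1526, 1720 and 1373 CPM and at 1776, 2291 and 1463 CPM, with overlapping groups (0.24, SE 0.14, adjusted p = 0.124). *Rps27l* lies on chromosome 9 (66946086 to 66949516, plus strand), and 17.4% of the 31-base sequences in its last 500 bases were shared. The difference between the 2 partners was not tested.

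*Rpl12*, *Rpl35* and *Rpl38* were the next 3 in size. *Rpl12*, which sits at the base of the stalk, stood at 207, 232 and 220 CPM in neutrophils and at 410, 514 and 438 CPM in macrophages (log2 fold change 1.04, SE 0.12, adjusted p = 2.3e-07). *Rpl35*, at the exit of the peptide tunnel, stood at 381, 386 and 355 CPM and at 726, 999 and 617 CPM (1.04, SE 0.14, adjusted p = 3e-06). *Rpl38*, known from the mouse mutant Tail short for its role in the translation of Hox mRNAs, stood at 417, 470 and 405 CPM and at 781, 1021 and 661 CPM (0.91, SE 0.14, adjusted p = 9.05e-06). In each of the 3 genes the lowest macrophage library was above the highest neutrophil library, and macrophage library 2 was the highest. *Rpl35* overlaps *Arpc5l*, with 4272 counts in all, and *Rpl12* overlaps *Lrsam1*, with 223, both on the opposite strand. In total 4 of the 51 members called higher rose at least 2-fold, 25 at least 1.5-fold and 26 by less.

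The stalk proteins differed among themselves in saline. *Rplp1* stood at 1095, 1127 and 1008 CPM in neutrophils and at 1796, 2066 and 1716 CPM in macrophages (log2 fold change 0.79, SE 0.11, adjusted p = 3.12e-06). *Rplp2* stood at 925, 945 and 808 CPM and at 1119, 1256 and 1021 CPM (0.34, SE 0.11, adjusted p = 0.0108). *Rplp0*, which anchors the P1 and P2 proteins, stood at 1439, 1571 and 1315 CPM and at 1418, 1606 and 1339 CPM, at 0.01 on the log2 scale (95% interval -0.22 to 0.25, adjusted p = 0.912). The first 2 genes had groups that did not overlap, and those of *Rplp0* covered nearly the same range.

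Of the other members followed in every comparison, *Rpl41* stood at 2004, 2173 and 1773 CPM in neutrophils and at 3478, 4938 and 2529 CPM in macrophages (log2 fold change 0.83, SE 0.17, adjusted p = 0.00023), with a wide spread among the macrophage libraries and no overlap. *Rps27a* was at 0.25 (SE 0.13, adjusted p = 0.104) and *Rpsa* at -0.17 (SE 0.11, adjusted p = 0.191). *Rps6* stood at 272, 292 and 244 CPM in neutrophils and at 241, 264 and 161 CPM in macrophages (-0.30, SE 0.15, adjusted p = 0.0824), the lowest value of the 25 members that did not pass. *Rpl4*, a large-subunit protein that reaches into the exit tunnel, followed with -0.29 (SE 0.13, adjusted p = 0.0565), and was called lower in 9 of 20 alternatives, at -0.42 to -0.27, among them the CGRP-treated libraries. In both genes the groups overlapped. Of these 25 members, 7 had values below 0 and 18 above, up to 0.29 for *Rpl27a*.

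The 2 members that were lower in macrophages were *Rpl3l* and *Rps4l*. *Rpl3l* had 77 counts in the saline neutrophil libraries together and 2 in the saline macrophage libraries, a ratio of rates of 37.5 with a 95% interval from 10 to 315 (exact, counting error only). Its adjusted p was 2.99e-07 in limma-voom, and it passed the filter on low counts only through the neutrophil libraries. It lies at chr17:24727820-24736143, on the same strand as *Rps2* and 5890 bases after its end, with *Ndufb10* between them, and shares 0% of the 31-base sequences in its last 500 bases with other genes. *Rps4l*, annotated as a processed pseudogene, had 56, 69 and 45 counts in neutrophils and 36, 25 and 17 in macrophages, which is 17.7, 21.2 and 16.2 CPM against 10.3, 7.49 and 6.11 CPM (log2 fold change -1.19, SE 0.25, adjusted p = 3.79e-04). Both sets of libraries were fully apart. Without macrophage library 2, 6 members were lower in place of 2, with *Rps6* (-0.44), *Rpl4* (-0.39), *Rps9* (-0.32) and *Rpsa* (-0.28) added.

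The partners *Rpl3*, *Rps4x*, *Rpl10* and *Rpl39* were called higher. *Rpl3*, the partner of *Rpl3l*, stood at 926, 1024 and 858 CPM in neutrophils and at 1194, 1364 and 960 CPM in macrophages (0.32, SE 0.12, adjusted p = 0.0314), with overlapping groups, and it overlaps *Syngr1* on the opposite strand (6720 counts in all). *Rps4x* stood at 336, 387 and 309 CPM and at 421, 457 and 415 CPM (0.33, SE 0.11, adjusted p = 0.0144), with no overlap. *Rpl10*, which joins the large subunit late in its assembly, stood at 289, 301 and 281 CPM and at 453, 481 and 453 CPM (0.67, SE 0.10, adjusted p = 1.5e-05). Its groups were far apart, whereas its testis paralog *Rpl10l* was at 0 in 11 libraries. *Rpl39*, in the wall of the exit tunnel, stood at 355, 237 and 331 CPM and at 565, 687 and 306 CPM (0.70, SE 0.21, adjusted p = 0.00661), and overlapped because macrophage library 3 was low. Its paralog *Rpl39l* had 3 to 9 counts per library in saline neutrophils and 1 to 6 in saline macrophages.

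The cell types were also compared in the CGRP-treated libraries, which the saline comparison did not use. There 65 members were higher and 3 lower of 78 tested, where 30.5% and 34.5% of all genes were, and the median was 0.509, beside -0.060 for all genes. Of the members called in saline, 51 of the 51 higher and 2 of the 2 lower were called the same way in these libraries, and 74 of 78 had the same sign. Of all genes called in saline and tested in both, 81.4% of the higher and 85.7% of the lower were called the same way, and 89.4% of all genes tested in both had the same sign. For *Rpl3l*, 69 counts in neutrophils and 15 in macrophages gave a ratio of rates of 4.19 there (95% interval 2.37 to 7.88, exact, counting error only), beside 37.5 in saline. Whether these ratios differ is the interaction given above, which did not pass in limma-voom (adjusted p = 0.0603). The gene entered that test only through the neutrophil libraries, so no change of the difference is read from it. The libraries are separate, but the cells, culture and tables are the same as in the saline comparison.

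The saline difference went with the length of the coding sequence, which the choice of members did not use. The 39 members tested with up to 453 coding bases had a median log2 fold change of 0.578, with 34 called higher, and the 38 longer ones a median of 0.238, with 17 called higher. Across 77 members, Pearson's r with the log2 coding length was -0.412 and Spearman's rho -0.525. Over all 9724 coding genes tested the values were -0.069 and -0.163, and over the 4641 no longer than the longest member 0.008 and -0.060. Members share libraries, depth and 3′ tagging, so these are descriptions. For CGRP against saline, where no member was called, r and rho were 0.364 and 0.369 over 76 members in macrophages and 0.177 and 0.241 over 77 in neutrophils. With each library's trend on coding length removed, an alternative added after the data were seen, 62 members were higher and 1, *Rpl3l*, was lower, while *Rps4l* has no coding length and was not in that fit. Shared sequence did not order the members in the same way: 25 of the 39 with the smaller share and 26 of the 39 with the larger share were called higher. Among members with a RefSeq promoter, 9 of 13 with the C and pyrimidine start were called higher (median 0.363) and 29 of 44 without it (median 0.517).

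**Figure D4:**
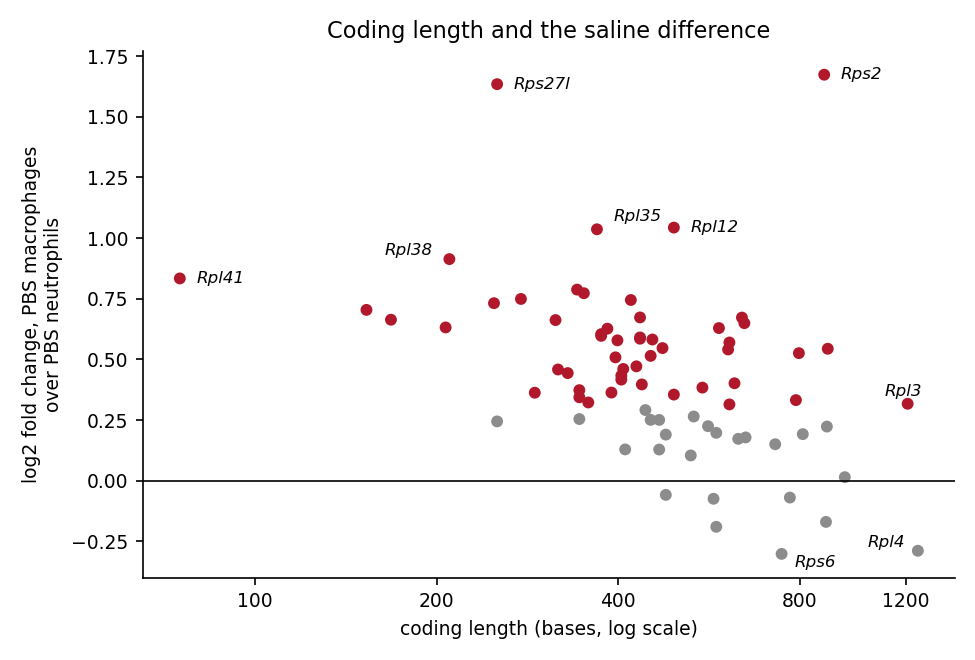
Coding length in bases (horizontal, log scale) against the log2 fold change in saline, macrophages over neutrophils, for 76 members (*Rpl3l* not drawn, *Rps4l* without a coding length). Red marks members called higher and grey those not past the threshold. The grey members lie mostly at the longer lengths, and *Rps2* stands far above other members of its length.

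Ribosomal genes that the name rule leaves out were read as a check. Of 7 such genes tested, 4 were higher in saline macrophages with none lower. These were *Rack1*, a scaffold on the head of the small subunit (log2 fold change 0.56), and the paralogs *Rpl7l1* (0.78), *Rpl22l1* (0.66) and *Rpl36al* (0.56). *Rps3a1* (0.06), *Fau* (0.10), which encodes a small-subunit protein fused to a ubiquitin-like one, and the retrogene *Rps27rt* (0.21) did not pass. With CGRP none of the 7 passed in either cell type. Rows named as pseudogenes of members, 275 in all, held at most 0.0354% of the counts of a library, and the 337 rows that share at least 50% of their 31-base sequences with a member held between 0.070 and 0.151%. Of the 23 pseudogene rows that could be tested in saline, 4 were higher in macrophages and 0 lower, where 33% and 35.5% of all genes were. With CGRP, 0 of 20 passed in neutrophils and 2 of 25 rose in macrophages, where 3.46% of all genes rose.

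The genes that build and use ribosomes were read from lists chosen by function, beside 33% of all genes called higher in saline macrophages and 35.5% called lower. In saline, 50 of 79 ribosome biogenesis factors were higher in macrophages and 5 lower (median 0.683), among them *Gnl3*, which encodes nucleostemin (1.85), *Nop16* (1.95), *Pno1* (1.84) and *Nhp2* (1.09). Of 76 mitochondrial ribosomal protein genes 50 were higher and 4 lower (median 0.557), led by *Mrps28* (1.75), *Mrpl12* (1.64), *Mrpl52* (1.35) and *Mrpl42* (1.31). Of 44 translation factors 22 were higher and 6 lower (median 0.282). *Eif1a*, an initiation factor that works in scanning, had 2.67, the helicase gene *Eif4a1* 1.53 and *Tpt1* 1.04, whereas *Eif5* was lower with -0.86. For RNA polymerase I 2 of 14 genes were higher (*Rrn3*, 1.08, among them) and 5 lower, such as *Polr1a* (-1.48), *Ttf1* (-0.87) and *Taf1b* (-0.81). Of 31 genes around mTOR, Myc and TOP mRNAs, 9 were higher and 11 lower, among them *Sesn1* (4.23), *Mxd1* (-6.54), *Max* (-2.49) and *Eif4ebp1* (-1.26). In the CGRP-treated libraries *Rrn3* (0.32) and *Ttf1* (-0.41) did not pass. There the log2 fold changes of *Gnl3* (1.05), *Eif4a1* (0.98), *Sesn1* (2.63), *Taf1b* (-1.23) and, of the ribosomal genes above, *Rpl7l1* (0.33) differed from those in saline. For these genes the ratio of the 2 log2 values was over 1.5, which is not a fold of expression. *Eif1a*, not among them, had an interaction of -0.861 on the log2 scale. With the coding-length trend removed *Polr1a* was at -0.92 and *Ttf1*, which then did not pass, at -0.52.

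With CGRP, 0 genes of these lists passed in neutrophils. In macrophages, 8 of 79 ribosome biogenesis factors fell and none rose, with 68 values below 0 and a median of -0.303, beside 3.97% of all genes called lower and 3.46% higher. *Gnl3* stood at 47.3, 51.8 and 36.7 CPM with saline and at 14.1, 16.6 and 18.1 CPM with CGRP (log2 fold change -1.48, SE 0.21, adjusted p = 2.9e-04). *Nop58*, a core protein of the box C/D snoRNPs that guide rRNA modification, stood at 49.9, 51.8 and 38.5 CPM and at 15, 23.3 and 19.1 CPM (-1.31, SE 0.21, adjusted p = 9.48e-04). In both genes every CGRP library was below every saline library. *Dkc1*, the pseudouridine synthase of the H/ACA snoRNPs, fell by 1.09 (adjusted p = 0.0133) and *Wdr43* by 0.70 (adjusted p = 0.0125), and both missed the threshold without saline macrophage library 1 (-0.98 and -0.60) or without CGRP macrophage library 2 (-1.14 and -0.65). *Dkc1* also missed it without CGRP library 3 (-0.90) and *Wdr43* after thinning to the smallest library (-0.52).

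Of 44 translation factors 4 fell with CGRP in macrophages and none rose. Here and for the other lists of this paragraph, 3.97% of all genes fell and 3.46% rose. *Eif1a* fell by 0.61, *Eef1e1* by 0.85, *Abce1*, which recycles ribosomes, by 0.69 and the release factor gene *Gspt1* by 0.76. *Eif1a* missed the threshold without CGRP library 2 (-0.55), and the other 3 without saline library 1 (-0.86, -0.62 and -0.54), CGRP library 2 (-0.83, -0.68 and -0.58) or CGRP library 3 (-0.76, -0.55 and -0.81), *Gspt1* also after thinning (-0.69). Of 76 mitochondrial ribosomal protein genes 1 fell, *Mrpl17* (-0.58), which missed the threshold without saline library 1 (-0.58), saline library 2 (-0.48), CGRP library 2 (-0.55) or CGRP library 3 (-0.50). None of 14 RNA polymerase I genes passed. Of 31 genes around mTOR, Myc and TOP mRNAs, 4 rose and 2 fell. *Myc*, which drives ribosome production, stood at 25.2, 18.9 and 16.5 CPM with saline and at 4.70, 5.91 and 5.53 CPM with CGRP (-1.88, SE 0.31, adjusted p = 9.48e-04), and *Mxi1*, which encodes a partner of Max that opposes Myc, at 8.61, 7.49 and 10.8 CPM and at 54.2, 53.9 and 54.8 CPM (2.61, SE 0.22, adjusted p = 1.58e-06). *Sesn1* fell by 1.74 and *Sesn2*, like it a sestrin that restrains mTORC1, rose by 1.72 on the log2 scale. The ribosomal protein genes themselves, in the same libraries, had 0 of 77 called and a median of 0.115.

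**Figure D5:**
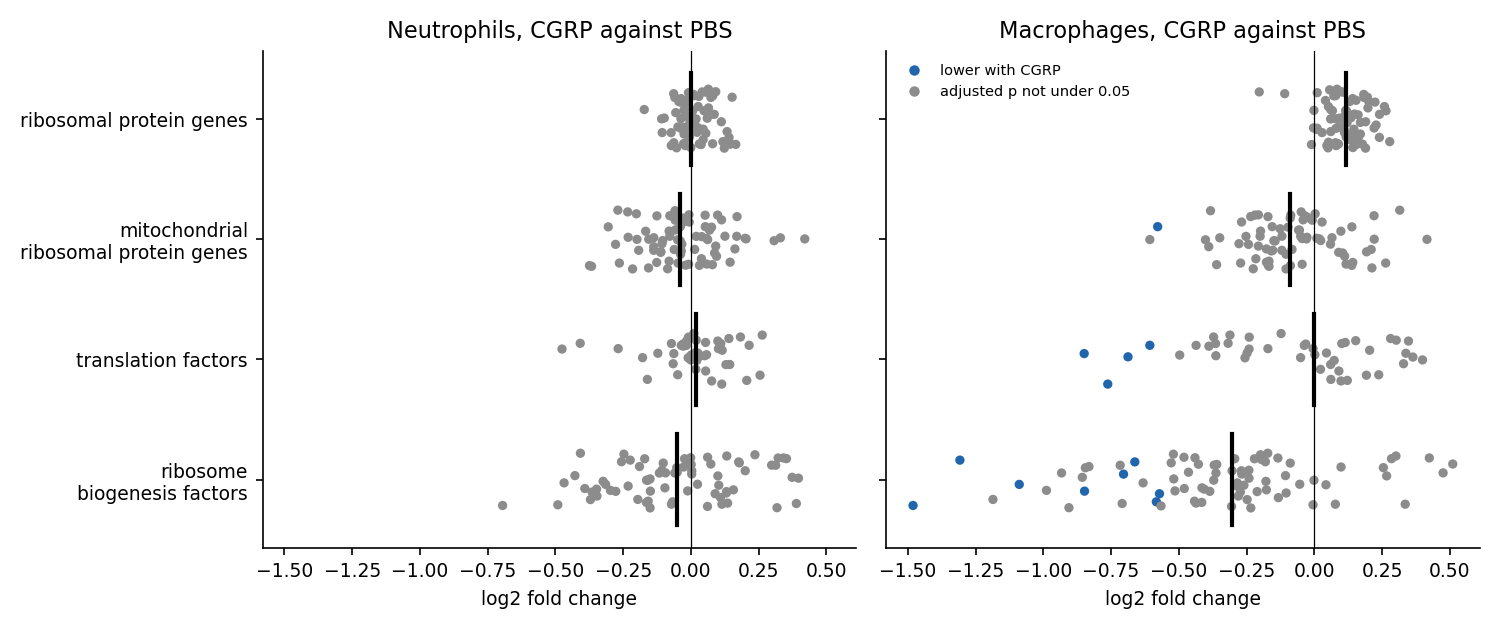
Log2 fold change of CGRP against PBS (horizontal axis) in neutrophils (left) and macrophages (right) for the genes of 4 groups, each point 1 gene and each black bar the median of its group. Blue points fell at an adjusted p under 0.05 and grey points did not pass. In macrophages the ribosomal protein genes lie in a narrow band with a median of 0.115, and the ribosome biogenesis factors have a median of -0.303 with 8 genes in blue.

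Markers of other cells and of division moved with these comparisons. The counts called below stand beside 33% of all genes called higher and 35.5% called lower in saline macrophages. With CGRP in macrophages, 3.46% of all genes rose and 3.97% fell. In saline neutrophils the 7 myeloid progenitor markers summed to 3801, 4108 and 3617 CPM, led by *Elane*, against 8.03, 9.59 and 6.83 CPM in macrophages, the 9 erythroid markers to 6798, 7704 and 6057 CPM, led by *Hbb-bs*, against 23.8, 25.8 and 21.2 CPM, and the 10 B cell markers to 766, 772 and 802 CPM, led by *Ighm*, against 121, 123 and 146 CPM. All 7, 9 and 10 of these were lower in macrophages, and none was at 0 in every library. The 6 eosinophil, basophil and mast cell markers, all lower too, summed to 1036, 1149 and 971 CPM against 10.3, 9.59 and 9.35 CPM. The sums of 2 lists went in the other direction, each through 1 gene. The platelet and megakaryocyte markers summed to 169, 169 and 167 CPM against 633, 977 and 678 CPM, of which *Pf4* alone gave 630, 974 and 673. The dendritic cell markers summed to 58.5, 63.5 and 53.7 CPM against 195, 176 and 152 CPM, of which *Bst2* alone gave 192, 170 and 147. In each of these 2 lists, 1 of 3 tested was higher and 2 lower. The 14 proliferation markers summed to 1782, 1767 and 1693 CPM in neutrophils and to 578, 568 and 421 CPM in macrophages, with 13 of 14 lower there. With CGRP this sum was 348, 252 and 223 CPM in macrophages, where 8 of the 14 fell, and 1703, 1677 and 1603 CPM in neutrophils, where none of the 14 passed. Also with CGRP, the neutrophil markers in macrophages summed to 450, 429 and 423 CPM, and the monocyte and macrophage markers to 55239, 59914 and 63824 CPM, both above the 3 saline sums given at the start. Of the former 0 of 9 tested passed, with a median log2 fold change of 0.379, and of the latter 1 of 14 rose and 2 fell. The 10 T and NK cell markers, led by *Cd4* in macrophages, were near the floor there. They summed to 2.87, 2.10 and 3.96 CPM with saline and to 7.84, 6.28 and 8.05 CPM with CGRP. The 1 of them that could be tested rose (log2 fold change 1.68). The part of these cells and of division in the levels of the ribosomal protein genes was not tested.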

How the data were processed

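RNA-seq of bone marrow neutrophils and M-CSF macrophages of mice, with saline or CGRP, gave 12 libraries in 4 groups of 3. Per the labels and the methods, the authors ran nfCore/RNAseq with its function for molecular identifiers, with STAR as the aligner (GRCm38) and featureCounts as the counter. The deposited values are raw counts per gene, with neutrophils and macrophages in separate tables. Annotation release, strand setting and versions of STAR and featureCounts are not given in the sources used here.

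The members, gene lists and tests were chosen with earlier results of these data known. Genes were kept by filterByExpr, scaled by TMM and tested with limma-voom (two-sided, Benjamini–Hochberg over all genes tested, threshold 0.05), within each cell type, between cell types in saline, and as an interaction over the 12 libraries. Fold changes compare the 2 groups on the log2 scale. The named members are those called (5 per direction where over 10), the 3 largest rises and falls with CGRP, well known subunits, paralogs with their partners and ribosomal genes outside the name rule, and from each list at most 4 genes called. Results for some named genes are not reported here.

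Positions, coding lengths and 31-base sequences came from GENCODE M21 of GRCm38, in which 52403 of the 52636 identifiers were found, and promoters from RefSeq. Of all pairs of libraries, 0 were identical, and 0 columns of other samples were in the tables. The steps were tested on simulated data. Versions were R 4.3.3, limma 3.58.1, edgeR 4.0.16 and DESeq2 1.42.0.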

Additional observations from a re-analysis of the deposited data

Results flagged for a closer look

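None of the 78 ribosomal protein genes tested had a CGRP effect that differed between the cell types at an adjusted p under 0.05. Of 251 other genes, those that build or use ribosomes together with regulators around mTOR, Myc and TOP mRNAs, 7 (2.79%) did in the interaction of the limma-voom fit over the 12 libraries, a share near the 2.36% of all genes tested that passed. The values are differences of the log2 fold change, macrophages minus neutrophils. *Mxi1* had 2.43 (adjusted p = 2.8e-06), with 57.2, 45.1 and 55.8 CPM in saline neutrophils and 63.7, 53.1 and 62.7 CPM with CGRP, where it did not pass. *Sesn1* had -1.58 (adjusted p = 0.00169) and *Sesn2* 1.68 (adjusted p = 0.00571), the latter missing the threshold without saline macrophage library 1 (1.53). *Nop58* had -1.43 (adjusted p = 0.00461), with 33.5, 22.7 and 23.1 CPM in saline neutrophils and 30.6, 27.9 and 26.3 CPM with CGRP. *Ddit4*, which encodes an inhibitor of mTORC1, had 2.66 (adjusted p = 0.0195) and missed the threshold in 4 of 23 alternatives, those without saline neutrophil library 3 (2.57), CGRP neutrophil library 1 (2.44), or saline macrophage library 1 (2.44) or 3 (2.32). *Mrpl17* had -0.727 (adjusted p = 0.0317) and *Eif1a* -0.861 (adjusted p = 0.0448), and each missed the threshold in 11 of 24 alternatives, mostly those that left out a library. Over all 24 the values ran from -0.848 to -0.628 for *Mrpl17* and from -1.04 to -0.72 for *Eif1a*.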

How the results depend on the processing

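The alternatives were other tests, scalings and filters, thinning, members summed with their pseudogene rows, a single fit over 12 libraries, the replicate number as a block, and leaving out each library. Removing the coding-length trend and the CGRP-treated libraries were added after the data were seen. In neutrophils all 19 alternatives gave 0 members called. In macrophages 0 became 1 without a filter on low counts and in a single fit, and in the interaction with library weights, the replicate block, the coding-length trend removed or without a library (range 0 to 1), in each case *Rpl3l*. In saline, between 49 and 66 members were higher under the other alternatives and between 37 and 64 without a library. Members lower were 1 with the coding-length trend removed, where *Rps4l* could not be fitted, 5 with the block, and between 2 and 6 without a library. With the replicate block 63 members were higher, and *Rps6*, *Rps9* and *Rpl4* were those added to the lower ones. Over all genes, same-number libraries correlated between -0.013 and 0.137 in neutrophils, and other pairs between -0.136 and 0.108. In macrophages the same-number pairs ran from -0.179 to 0.273 and the other pairs from -0.402 to 0.386. Within a cell type the numbers were thus not shown to pair the libraries on this measure. Between the cell types in saline, every same-number pair (0.0936 to 0.198) lay above every other pair (-0.136 to 0.0104). What the numbers stand for is not given in the sources used here. Over the members alone, the same-number neutrophil pairs had 0.351, 0.349 and 0.598 and the other pairs -0.47 to 0.0997. The same-number macrophage pairs had -0.0628, -0.558 and 0.675 over the members, and the other macrophage pairs -0.7 to 0.829. Between the cell types in saline, the same-number pairs had 0.402, -0.00537 and 0.475 over the members, and the other pairs -0.514 to 0.289. Shares of counts without the 10 most abundant other genes were 7.18, 7.28, 9.46 and 9.91% in the order of groups above. Of 1281 values for 64 named results, 1219 kept their direction and call, 51 lost and 4 gained the call, and 7 reversed, none of them called: *Rpl3l* in neutrophils to 0.0343 (thinned) and, without a library, between -0.515 and 0.262. Without a library, macrophage values ranged from -0.425 to 0.00628 for *Rps4l*, from -0.254 to 0.0569 for *Rps27l* and from -0.165 to 0.195 for *Rps12*, which was also above 0 without CGRP library 2 (0.089) or 3 (0.046). The causes were not tested. With 2002559 to 3631989 counts per library and 3 libraries a group, precision is as the intervals above give it.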
